A study of Mus musculus with 2 samples.

Results

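The cytochrome P450 genes of families 1, 2 and 3 were examined in liver mRNA sequencing of 1 control library and 1 iFIRKO library. Members were all rows whose symbol begins with Cyp, a family number from 1 to 3, a letter and a further number, with pseudogene symbols left out, which gave 60 genes in 16 subfamilies of the 53241 distinct symbols in the files. This rule uses no measured value. iFIRKO mice carry Adipoq-CreERT2, a tamoxifen-inducible Cre recombinase driven by the adiponectin promoter and so active in adipocytes, together with floxed alleles of the insulin receptor gene *Insr*. The control is labelled WT, whereas the methods describe the control mice as IR flox/flox. All mice were male, received 100 mg/kg tamoxifen on 5 days from 7 weeks of age and were examined 3 days after the final dose, so the control library is also a tamoxifen-treated one. The sources used here do not say how many mice stand behind a library. With 1 library per genotype, each difference below is a difference between 2 libraries and carries no replicate error and no p-value.

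Cytochrome P450 enzymes hold a heme whose iron activates oxygen, and those of families 1 to 3 oxidize drugs, plant and combustion products, steroids, bile acids and polyunsaturated fatty acids. In the liver they sit in the endoplasmic reticulum of hepatocytes, many of them around the central vein, and draw electrons from the reductase encoded by *Por*. Their genes are switched by receptors that sense foreign compounds, namely AhR for family 1, CAR for Cyp2b and PXR for Cyp3a, and in mice several are set by the sex-specific rhythm of growth hormone. Tamoxifen is itself a substrate of P450 enzymes.

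All of these enzymes bind heme through a cysteine in a short signature near the end of the protein. The codons of this signature are shown for the members on which the results turn, since they show which of these genes differ there and which are identical. Sequences run from 5′ to 3′ in the coding strand of GENCODE M21 transcripts, and capitals mark the codon of the heme-binding cysteine.
Cyp1a2: ttcggcttgggaaagcgccggTGCattggg
Cyp2b10: ttctcaacaggaaagcgcattTGTcttggt
Cyp2c29: ttttcaacaggaaaacggattTGTgctgga
Cyp2c40: ttctcagcaggaaaacggattTGTgtggga
Cyp2c67: ttctcagcaggaaaacggattTGTgtggga
Cyp2c68: ttctcagcaggaaaacggattTGTgtggga
Cyp2c69: ttctcagcaggaaaacggattTGTgtggga
Cyp2c70: ttctcagcaggaagaagagctTGTattgga
Cyp2d9: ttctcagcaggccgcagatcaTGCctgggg
Cyp2d40: ttctcagcaggccgtcgagcaTGTctgggt
Cyp2e1: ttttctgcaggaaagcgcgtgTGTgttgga
Cyp3a11: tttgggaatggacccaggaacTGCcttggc

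The signature was found in 58 of 60 members, with *Cyp2s1* and *Cyp3a59* lacking an exact match. The 58 runs of 30 bases had 46 distinct sequences, and 20 members had a run that another member also holds. *Cyp2c40*, *Cyp2c67*, *Cyp2c68* and *Cyp2c69* were identical over these 30 bases, whereas *Cyp2c70* differed from them at 7 bases and *Cyp2c29* from *Cyp2c69* at 4. In *Cyp2c70*, on the reverse strand, the run crosses the junction of exons 8 and 9 and lies within chr19:40153738-40156732 of GRCm38. In *Cyp3a11* it lies inside exon 12 of 13, at chr5:145858805-145858834 on the reverse strand.

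Over whole transcripts the same resemblance sets how far a single value can be trusted. At least 20% of the 50-base stretches of a transcript set also occurred in another gene for 20 of the 60 members, among them 19 of the 47 at measurable levels. *Cyp3a41a* and *Cyp3a41b* shared most, with 98.6% and 93.5% of their stretches held elsewhere and 2 edits between their coding sequences. Cyp2c40 (60.3%), Cyp2c69 (54.3%), Cyp2c67 (52.8%) and Cyp2c68 (43.3%) followed. *Cyp2c70*, *Cyp2c44*, *Cyp2f2*, *Cyp2j9*, *Cyp2r1* and *Cyp3a13* were among those that shared none. How reads that map to several genes were counted is not given in the sources used here, so single values of the first kind are uncertain. Where 1 measurable gene holds at least 20% of the stretches of another, the sum over those genes is also given. *Cyp2b13*, *Cyp2c54*, *Cyp2d9* and *Cyp3a44* spread their shared stretches over several genes and have no such sum, so their uncertainty stands.

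Values are normalized reads, the authors' scaled read counts returned from the log2 to the linear scale. The libraries held 42003900 and 41579630 normalized reads, or about 21139356 and 20655554 read pairs. Intervals are 95% exact Clopper-Pearson intervals on estimated read pairs and cover counting error only. The 9 hepatocyte markers examined, among them *Alb* and *Ttr*, each had at least 28673 normalized reads in either library, and their sum was 5416759 in control and 5111005 in iFIRKO. Of these 9 none was over 1.5-fold higher and 1, *Apoa1*, was over 1.5-fold lower (168382 and 87600). Markers of adipocyte, pancreas and kidney were at or near 0, from 0 to 8.05 normalized reads in either library, and those of olfactory and lung epithelium summed to 44.6 and 22.5. Of 6 Kupffer cell markers 4 were over 1.5-fold lower in iFIRKO (summed level 27340 and 17564), as were 2 of 5 endothelial markers (7700 and 5490). None of 5 stellate markers (8776 and 9198) and none of 5 cholangiocyte markers (2347 and 2026) was past 1.5-fold. Over all genes tested, 4.46% were over 1.5-fold higher and 7.28% over 1.5-fold lower. The part of these other cell types in the values below was not tested. *Insr*, which is deleted in adipocytes and not in hepatocytes, had 4246 normalized reads in control liver and 3692 in iFIRKO liver.

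Together the 60 members took 1.90% of the control read pairs and 1.83% of the iFIRKO pairs. Their sum of 796896 normalized reads in control became 759013 in iFIRKO (log2 fold change -0.07, interval -0.08 to -0.06). The total therefore differed little, while single members differed by up to 2.58-fold. Of the 60, 47 reached the minimum of 41.8 normalized reads (a CPM of 1) in either or both libraries. Among these 47 members, 6 were over 1.5-fold higher in iFIRKO and 9 over 1.5-fold lower. Those shares, 12.8% and 19.1%, stand beside 4.46% higher and 7.28% lower over all 13400 genes tested at the same minimum. They count single values, some of them of genes that share sequence. *Cyp2a22*, *Cyp2c37* and *Cyp3a41b* are among those counted, and their sums with paralogs were within 1.5-fold (log2 fold changes 0.36, -0.33 and 0.48). In control *Cyp2a12* (23206 normalized reads) far outweighs *Cyp2a22* (1260), and *Cyp2c50* (38706) outweighs *Cyp2c37* (15350). The sums with *Cyp2a12* and *Cyp2c50* are thus set mainly by the paralog and cannot decide whether the single values hold. *Cyp2c40* and *Cyp2c69*, summed with their near-copies, stayed past 1.5-fold (-0.74). *Cyp1b1* passed the minimum through the iFIRKO library alone and *Cyp2g1* through the control library alone. The median log2 fold change of the 47 was 0.08, against 0.01 for all genes tested. In bulk tissue fewer cells of a type and less RNA per cell cannot be told apart.

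**Figure D1:**
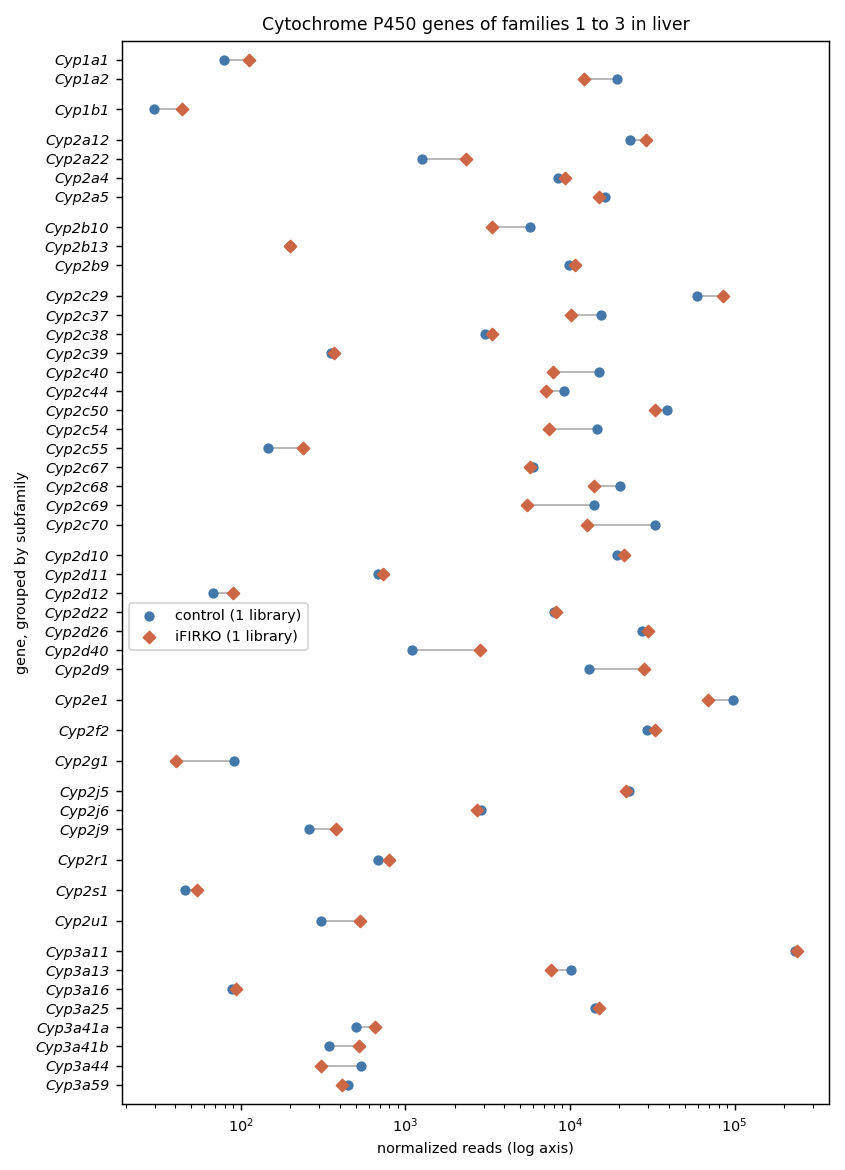
Normalized reads on a log axis of the 47 members that reached the minimum, grouped by subfamily, with a circle for the 1 control library and a diamond for the 1 iFIRKO library. Levels span from 29.8 for Cyp1b1 in control to 240410 for Cyp3a11 in iFIRKO, and the widest gaps are those of Cyp2d40, Cyp2c70 and Cyp2c69.

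Levels of different genes were compared per kilobase of annotated exon. In the control library *Cyp3a11* (45782 normalized reads per kb) and *Cyp2e1* (45667) led, followed by *Cyp2c29* (19215), *Cyp2c70* (16498), *Cyp2d26* (15372) and *Cyp2f2* (14450). *Cyp3a11* and *Cyp2e1* were level only on this length, which counts every annotated exon. On the length of the longest transcript they stood at 83214 and 53764 per kb. The order after them changed too, with *Cyp2c50*, at rank 7 on exon length, at rank 3 (21220), ahead of *Cyp2c29* (20842) and *Cyp2c70* (19034). In the iFIRKO library *Cyp3a11* again came first (47204 per kb of exon), with *Cyp2e1* at 31794 and *Cyp2c29* at 27740. On exon length *Cyp2c70*, at rank 4 in control, had left the first 10 in iFIRKO at 6396 per kb, and *Cyp2d9* had entered them at 10680, from 4899. On the longest transcript *Cyp2d9* stood at 7606 in control and 16581 in iFIRKO.

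Family 1 holds the AhR targets. *Cyp1a2*, which oxidizes caffeine and aromatic amines and is a pericentral enzyme, stood at 19255 normalized reads in control against 12125 in iFIRKO, 0.630-fold (log2 fold change -0.67, interval -0.71 to -0.62). *Cyp1a1*, the inducible enzyme of polycyclic hydrocarbon metabolism on the same chromosome, had only 79.0 and 111.7 normalized reads. Its log2 fold change of 0.48 lay within counting error of 0 (interval -0.14 to 1.10). *Cyp1b1* had 29.8 and 44.3, again within counting error (interval -0.44 to 1.62). *Cyp2s1*, another gene that AhR can induce, had 45.7 and 54.3. Only *Cyp1a2* of these 4 was past 1.5-fold, and within Cyp1a it held 99.6% of the control reads.

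The core sequence bound by AhR with its partner ARNT, GCGTG on either strand, was looked for from 250 bases before to 50 after the transcription start in RefSeq promoters of GRCm38.p6. It occurred in 9 of 52 members with a promoter entry (17.3%), against 35.2% of 27025 genes. *Cyp1a1* and *Cyp1b1* held it and *Cyp1a2* did not hold it in this window. The Cyp1a1 match (chr9:57697547-57697576, forward strand) and the Cyp1b1 match (chr17:79715120-79715149, reverse strand) are printed with the motif in capitals, since these are the family 1 genes with a match.
Cyp1a1: tcagataaggagGCGTGgccaacagacaca
Cyp1b1: cgtcccgcccctCACGCcccaccccctaag

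A STAT motif, TTCNNNGAA, occurred in 2 of 52 members (3.85%), against 9.55% of genes. Both, *Cyp2j11* and *Cyp2j12*, were listed at 0 in both libraries.

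Of 13 measurable Cyp2c genes 1 was over 1.5-fold higher and 5 lower, beside 4.46% and 7.28% of all genes tested. The 5 include *Cyp2c40* and *Cyp2c69*, which share sequence, so they are not independent. Cyp2c members epoxidize arachidonic and linoleic acid, hydroxylate steroids and retinoids or act on bile acids. *Cyp2c70*, the enzyme that makes muricholic acids in mice, stood at 32682 normalized reads in control against 12670 in iFIRKO. This was 0.388-fold (log2 fold change -1.37, interval -1.41 to -1.33), and none of its 50-base stretches occurs in another gene. The gene spans chr19:40153353-40187333 on the reverse strand. *Cyp2c69* went from 14088 to 5510 (-1.35), *Cyp2c54* from 14621 to 7460 (-0.97), *Cyp2c40* from 14967 to 7921 (-0.92) and *Cyp2c37* from 15350 to 10143 (-0.60). *Cyp2c68* (20191 and 13972), *Cyp2c44* (9239 and 7156) and *Cyp2c50* (38706 and 32912) were lower by less than 1.5-fold.

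*Cyp2c29*, which CAR and PXR agonists induce, stood on the other side with 58816 and 84913 normalized reads. Its 1.44-fold difference was just under the threshold (log2 fold change 0.53, interval 0.51 to 0.55). *Cyp2c55* was past it, with 146.8 and 237.9 (log2 fold change 0.68, interval 0.26 to 1.13). *Cyp2c38* had 3037 and 3362, and *Cyp2c39*, an oxidase of retinoic acid, 353.0 and 369.5. The remaining 7 of the 13 Cyp2c genes at measurable levels were within 1.5-fold.

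The make-up of the Cyp2c reads differed as well as their sum. The sum went from 228128 to 192326 normalized reads (log2 fold change -0.25, interval -0.26 to -0.23), and without *Cyp2c29* from 169311 to 107412 (-0.66). *Cyp2c29* took 25.8% of the Cyp2c reads in control and 44.2% in iFIRKO. The share of *Cyp2c70* was 14.3% and 6.59%. *Cyp2c50* held 17.0% and 17.1%. The 4 near-identical genes *Cyp2c40*, *Cyp2c67*, *Cyp2c68* and *Cyp2c69* together went from 55178 to 33101 (-0.74, interval -0.77 to -0.71). *Cyp2c37* and *Cyp2c50*, which also share sequence, together went from 54056 to 43055 (-0.33, interval -0.35 to -0.30), so *Cyp2c37* was past 1.5-fold by its single value alone. Among the 4, single values ran from -1.35 for *Cyp2c69* to -0.06 for *Cyp2c67* (5932 and 5698), and reads could have moved between them in the counting.

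**Figure D2:**
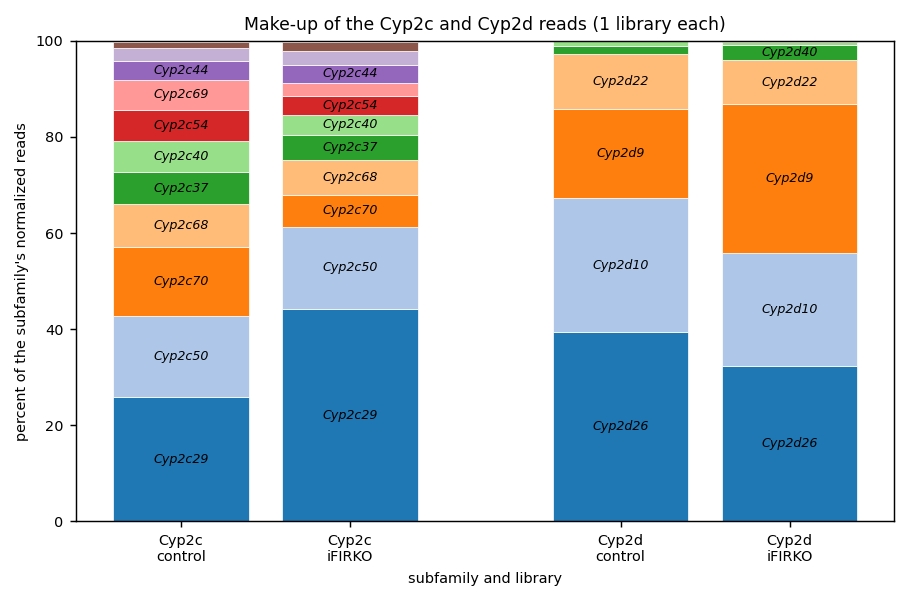
Percent of the normalized reads of Cyp2c (left pair of bars) and Cyp2d (right pair) taken by each member, in the 1 control and the 1 iFIRKO library. Cyp2c29 widens from 25.8% to 44.2% and Cyp2c70 narrows from 14.3% to 6.59%, while Cyp2d9 widens from 18.6% to 31.1%.

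All Cyp2c genes but *Cyp2c44* lie in 1 cluster of 14 genes over 1180 kb of chromosome 19, and the sign of the difference followed their order there. In chromosome order the log2 fold changes were 0.68 for *Cyp2c55*, 0.53 for *Cyp2c29*, 0.15 for *Cyp2c38*, 0.07 for *Cyp2c39*, -0.06 for *Cyp2c67*, -0.53 for *Cyp2c68*, -0.92 for *Cyp2c40* and -1.35 for *Cyp2c69*. The last 4 genes were all lower but in no such order, with -0.60 for *Cyp2c37*, -0.97 for *Cyp2c54*, -0.23 for *Cyp2c50* and -1.37 for *Cyp2c70*. *Cyp2c65* and *Cyp2c66*, between *Cyp2c55* and *Cyp2c29*, stayed under the minimum and were given no fold. The sign turned between *Cyp2c39* (interval -0.24 to 0.37) and *Cyp2c67* (interval -0.13 to 0.02), and both intervals hold 0. From *Cyp2c67* to *Cyp2c69* the descent runs within the 4 near-identical genes, between which reads could have moved in the counting. The 4 measurable genes before *Cyp2c67* summed to 62353 normalized reads in control and 88883 in iFIRKO (log2 fold change 0.51), and the 7 after it to 150604 and 90588 (-0.73). *Cyp2c67* is the first gene below 0, so the signs of these sums follow from where the cut was placed. They add no support for the order. In the first sum *Cyp2c29* alone had 58816 and 84913 normalized reads. Over the 12 genes Spearman's rho between start position and log2 fold change was -0.86. This is a description of genes that share both libraries, and neighbours are often the closest paralogs, so the points are not independent. The order was looked at after the values had been seen.

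**Figure D3:**
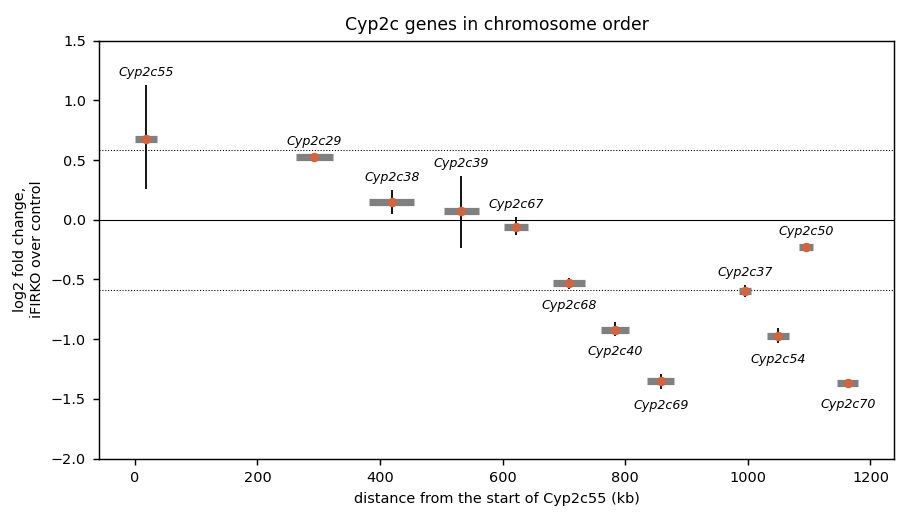
Log2 fold change of the 12 measurable Cyp2c genes of the chromosome 19 cluster against distance from the start of Cyp2c55 in kb. Grey bars span each gene, vertical lines are 95% exact intervals for counting error and dotted lines mark 1.5-fold. Values descend from 0.68 for Cyp2c55 to -1.35 for Cyp2c69, and the genes beyond stay below 0.

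In Cyp2d 2 of 7 measurable genes were past 1.5-fold, both higher in iFIRKO, beside 4.46% higher over all genes tested. *Cyp2d9* made up most of the difference in reads. *Cyp2d9*, the testosterone 16α-hydroxylase typical of male mouse liver, stood at 13021 normalized reads in control against 28386 in iFIRKO, 2.18-fold (log2 fold change 1.12, interval 1.08 to 1.17). It spans chr15:82433437-82456845 on the forward strand. *Cyp2d40* had 1101 and 2850, the largest fold of all members at 2.58 (log2 fold change 1.37, interval 1.23 to 1.52). The abundant *Cyp2d26* (27546 and 29611), *Cyp2d10* (19428 and 21401) and *Cyp2d22* (8060 and 8226) differed by 1.10-fold or less. *Cyp2d22* is usually taken as the mouse counterpart of human CYP2D6. *Cyp2d11* had 680.8 and 731.5, or 20109 and 22132 together with its paralog *Cyp2d10* (0.14, interval 0.10 to 0.18), and *Cyp2d12* 67.5 and 90.4. Summed over 8 genes, Cyp2d went from 69911 to 91298 (log2 fold change 0.39, interval 0.36 to 0.41). Of its 50-base stretches *Cyp2d9* shared 21.8% with other genes and *Cyp2d40* 14.5%, and the span of *Cyp2d9* overlaps 4 other annotated genes.

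Cyp2a and Cyp2b stand interleaved on chromosome 7. *Cyp2a22* went from 1260 to 2323 normalized reads (log2 fold change 0.88, interval 0.74 to 1.02), and its close paralog *Cyp2a12*, which hydroxylates bile acids, from 23206 to 28988 (0.32). The pair has 20.1% and 20.2% of its stretches in common, and the sum of both, 24466 and 31312, had a log2 fold change of 0.36 (interval 0.32 to 0.39). The steroid 15α-hydroxylase gene *Cyp2a4* (8427 and 9384) and the coumarin 7-hydroxylase gene *Cyp2a5* (16441 and 15037) differed in opposite directions, and their sum was level (log2 fold change -0.03, interval -0.06 to 0.01). *Cyp2b10*, the classical CAR target, stood at 5755 normalized reads in control against 3346 in iFIRKO, 0.582-fold (log2 fold change -0.78, interval -0.87 to -0.70). Its neighbours differed by 1.10-fold or less, with 9826 and 10810 for *Cyp2b9* and 198.1 and 199.1 for *Cyp2b13*. *Cyp2b19* and *Cyp2b23* were listed at 0.

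*Cyp2e1*, which oxidizes ethanol, acetone and paracetamol, stood at 98550 normalized reads in control against 68611 in iFIRKO. The log2 fold change of -0.52 (interval -0.54 to -0.50) stayed within 1.5-fold, but in number of reads no other member differed as much in either direction. *Cyp2f2*, the periportal enzyme that activates naphthalene, had 29261 and 32947 (0.17). *Cyp2g1*, known from the olfactory mucosa, had 90.7 and 40.3, and its interval was wide (log2 fold change -1.09, interval -2.02 to -0.40). The olfactory marker *Omp*, under the minimum in both libraries, had 40.6 and 17.1, while *Bpifb1* and *Sftpc* of the same list were at 0, and the part of such cells in the *Cyp2g1* value was not tested.

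**Figure D4:**
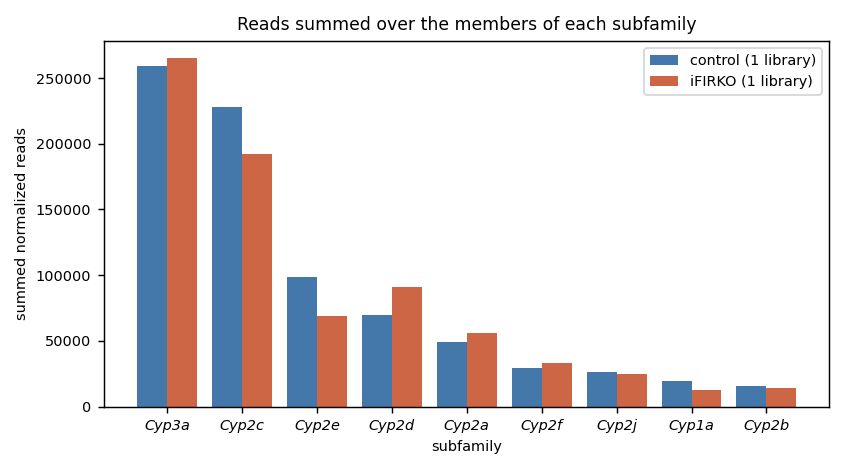
Normalized reads, not divided by length, summed over the members of the 9 subfamilies with the most reads. Bars start from 0 for the 1 control and the 1 iFIRKO library. Cyp3a is nearly level at 259470 and 265146, Cyp2c, Cyp2e and Cyp1a are lower in iFIRKO, and Cyp2d and Cyp2a are higher.

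The epoxygenases of Cyp2j differed little. *Cyp2j5* had 22823 and 21782 normalized reads and *Cyp2j6* 2887 and 2735, while the weaker *Cyp2j9* had 260.5 and 378.3 (log2 fold change 0.53, interval 0.21 to 0.87). *Cyp2j8* stayed under the minimum, and the other 4 members were listed at 0. Among the single-gene subfamilies, *Cyp2u1*, a fatty acid hydroxylase, went from 307.3 to 529.8, 1.71-fold (log2 fold change 0.78, interval 0.49 to 1.08). The vitamin D 25-hydroxylase gene *Cyp2r1* had 681.7 and 792.4 (0.22). *Cyp2t4* and *Cyp2w1* were listed at 0 in both libraries.

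Cyp3a had the most summed reads of any subfamily and was nearly level. These sums are not divided by length, so they do not rank the subfamilies by transcript level. *Cyp3a11*, the PXR target that metabolizes a wide range of drugs, stood at 233166 normalized reads in control against 240410 in iFIRKO, 1.03-fold (log2 fold change 0.04, interval 0.03 to 0.06), and alone took 29.3% and 31.7% of the members' reads. *Cyp3a25* had 14254 and 15082, and its paralog *Cyp3a59* 450.7 and 414.6, or 14704 and 15496 together (0.08, interval 0.03 to 0.12). *Cyp3a13* was lower, with 10129 and 7655 (-0.40, interval -0.47 to -0.34). The rarer genes lay on both sides of 0. *Cyp3a44* had 535.3 and 308.1 (log2 fold change -0.79, interval -1.09 to -0.50). *Cyp3a41a* had 501.2 and 655.2 and *Cyp3a41b* 342.4 and 520.8, or 843.7 and 1176 for the inseparable pair (0.48, interval 0.29 to 0.66). Within that pair *Cyp3a41b* taken alone was past 1.5-fold, at 1.51. *Cyp3a16* had 88.1 and 94.0, and *Cyp3a57* stayed under the minimum.

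**Figure D5:**
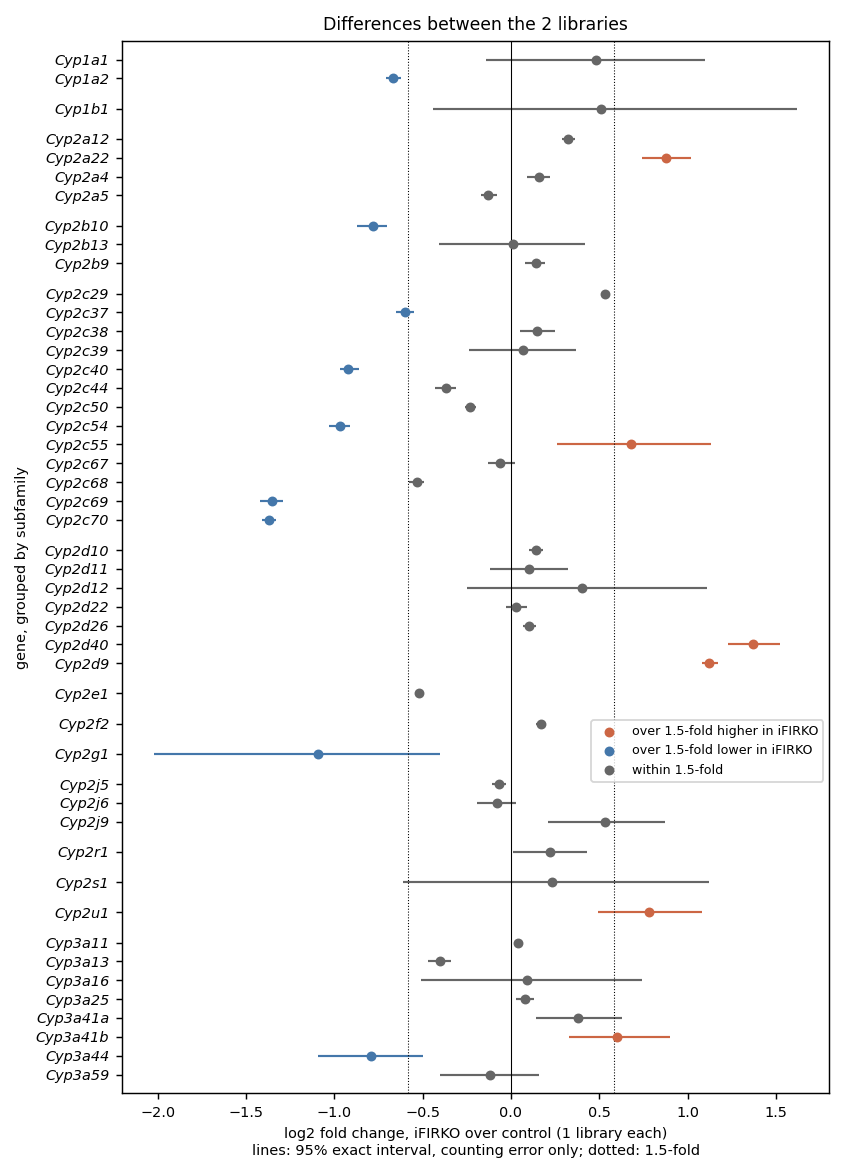
Log2 fold change, iFIRKO over control, of the 47 measurable members by subfamily, with 95% exact intervals for counting error as lines and 1.5-fold as dotted lines. The 6 higher members are coloured orange and the 9 lower members blue, and both colours occur within Cyp2c and within Cyp3a.

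Across subfamilies, the members were also grouped by what they are known to respond to. The counts stand against 4.46% higher and 7.28% lower over all genes tested, and in groups this small 1 gene is a large share. Of 11 members that CAR or PXR agonists induce, 1 was higher and 3 were lower, with a median of 0.01: *Cyp2c55* stood above, and *Cyp2b10*, *Cyp2c37* and *Cyp2c54* below. The sum over the 11, 400968 and 413168 normalized reads, had a log2 fold change of 0.04. Most of that sum came from *Cyp3a11* (233166 and 240410) and *Cyp2c29* (58816 and 84913), so it says little of the rest. Of 9 pericentral members 1 was higher (*Cyp2d9*) and 3 were lower (*Cyp1a2*, *Cyp2c37* and *Cyp2c54*), with a median of -0.23. Their sum, led by *Cyp3a11*, was nearly level at 507925 and 499997 (-0.02). The 7 other pericentral markers examined, *Glul* among them, had no gene past 1.5-fold and a median of -0.09. The 7 periportal markers examined also had none past 1.5-fold, with a median of -0.04. Of 5 members with higher expression in male mouse liver, *Cyp2d9* and *Cyp2u1* were higher and *Cyp1a2* lower, with a median of 0.17 and a sum at 0.18. Of 16 listed as higher in females 2 were higher and 6 lower. Their median was 0.04, while their sum was on the other side of 0, with 91102 and 70549 (-0.37, interval -0.39 to -0.35). Without *Cyp2d40* and *Cyp2g1*, whose place in that list is less certain, 1 of 14 was higher and 5 were lower, with a sum at -0.41, a split chosen after the data had been seen. Genes of that list thus lay on both sides of 0, but not by like amounts. *Cyp2c69*, *Cyp2c40*, *Cyp2b10* and *Cyp3a44* were each over 1.5-fold lower. Above 0, *Cyp2b9* (0.14), *Cyp2a4* (0.16) and the sum of both *Cyp3a41* genes (0.48) stayed within 1.5-fold.

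The genes that serve or regulate these enzymes were mostly within 1.5-fold. So were most genes tested, with 4.46% higher and 7.28% lower, and a single gene is a large share of lists this small. None of 6 electron donors and partners was past 1.5-fold. The most abundant were *Pgrmc1* (43850 and 47567 normalized reads), *Cyb5a* (39885 and 34017) and *Cyb5b* (22070 and 20050). *Por*, the reductase itself, had 13622 and 10068 (log2 fold change -0.44, interval -0.49 to -0.38). Of 18 measurable receptors and transcription factors none was higher and 2 were lower. These were *Nr0b2*, the bile acid-induced corepressor SHP (1480 and 860.9, -0.78), and *Cux2*, a repressor found mainly in female liver (839.3 and 485.4, -0.78). The most abundant were *Hnf4a* (29516 and 28673), *Rxra* (14902 and 14396) and *Cebpa* (8840 and 8411), which encode general hepatocyte factors. The sensors themselves were nearly level, with 1952 and 1958 for *Ahr*, 5412 and 5318 for *Nr1i3*, which encodes CAR, and 4134 and 4079 for *Nr1i2*, which encodes PXR. *Stat5b*, which relays the growth hormone signal, had 4956 and 3503 (-0.50), and *Bcl6*, a repressor more active in male liver, 730.9 and 973.8 (0.41). *Por*, *Ahr*, *Nr1i3*, *Nr1i2*, *Stat5b* and *Bcl6* were named after their values had been seen. None of 6 measurable AhR targets outside the P450s was past 1.5-fold, with *Xdh* (8798 and 8540), *Ugt1a6b* (3779 and 4088) and *Nfe2l2* (3126 and 4199) the most abundant.

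Of 20 other hepatic P450 genes, 4 were higher and 4 lower, beside 4.46% and 7.28% over all genes tested. The higher ones were *Cyp4a12a* (385.9 and 2862 normalized reads), its near-copy *Cyp4a12b* (84.9 and 679.5), *Cyp4a14* (24429 and 53514), all fatty acid ω-hydroxylases, and the low *Cyp46a1* (27.8 and 68.5), which passed the minimum through the iFIRKO library alone. The lower ones were *Cyp7b1* (7069 and 3409), *Cyp51* (13474 and 7692), *Cyp27a1* (22578 and 13527) and *Cyp7a1* (6698 and 4351), which act in sterol and bile acid synthesis. *Cyp8b1*, the sterol 12α-hydroxylase, had 16126 and 19288 and was named after its values had been seen. The abundant *Cyp4a10* (28948 and 35983) and *Cyp4v3* (26029 and 27664) stayed within 1.5-fold.

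The counting interval held 0 for 12 of the 47 measurable members, lay above 0 for 19 and below 0 for 16, which says nothing of variation between mice. Such intervals narrow with the number of reads, and 30 members had 1000 or more normalized reads in both libraries. No share over all genes tested stands beside these counts, so they do not show that the members differ from other genes. The 13 members under the minimum had 6.54 normalized reads at most, 9 of them were listed at 0 in both libraries, and none was given a fold. The remaining 4, *Cyp2c66*, *Cyp2d34*, *Cyp2j8* and *Cyp3a57*, had 3 read pairs or fewer in each library.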

How the data were processed

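Liver mRNA of 1 control and 1 iFIRKO sample was sequenced from stranded TruSeq libraries. The authors deposited log2 values of normalized read counts by gene symbol, and listed scaled counts up to 1 as 0. The submitters' processing notes name mm10. The aligner, counter, annotation and handling of multi-mapped reads are not given in the sources used here. Low values were often multiples of 1.987 normalized reads in the control and 2.013 in the iFIRKO library, taken as 1 read pair, but only 48.3% and 46.9% of them were whole pairs (within 0.01), so no count model was fitted. Pairs were rounded to whole numbers for the intervals alone, which are therefore approximate.

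Values were made linear. Fold changes were iFIRKO over control with a pseudocount of 4.18 normalized reads (a CPM of 0.1) for genes that reached 41.8 (a CPM of 1) in either library, and the threshold was 1.5-fold, as in the study's methods. Intervals leave out the pseudocount. Genes with no more than 3 pairs in a library got no fold. Positions, exon lengths and transcripts came from GENCODE M21 (GRCm38), which named 59 members directly and *Cyp2c44* through a RefSeq synonym. All 60 had a coding sequence, and edits between them were counted with edlib 1.3.9.post1. The signature was sought in the longest coding sequence that held it. Proteins were not compared here. Members at 41.8 normalized reads or more were named in full, and companion genes where past 1.5-fold or among the 3 most abundant of a list. Other names were chosen after values were seen. The members, groups and lists were chosen with earlier results of these data known. The fold and interval code was tested on simulated data. Alternatives covered the pseudocount, minimum, scaling, fold, duplicate symbols, shared sequence, length and stretch length. Tools were Python 3.11.15, scipy 1.17.1, numpy 2.4.6, pandas 2.3.3, matplotlib 3.10.9 and biopython 1.88. The small RNA libraries of serum vesicles were not analysed here.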

Additional observations from a re-analysis of the deposited data

Results flagged for a closer look

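Both results here are signals that the comparisons did not use, from pseudogene symbols of the same families. Only symbols over 1.5-fold higher in iFIRKO were flagged, so lower ones could not appear. Of all genes tested, 4.46% were that much higher. Among the 13 pseudogene symbols left out of the members, *Cyp2d37-ps* had 1190 and 1024 normalized reads (-0.22, interval -0.39 to -0.04). *Cyp2a21-ps* had 82.3 and 107.5 (0.37, interval -0.23 to 1.01). *Cyp2c53-ps* (chromosome 19 of GRCm38, 39229254 to 39274985, forward strand) stood at 10.9 normalized reads in control against 223.4 in iFIRKO, 15.1-fold (log2 fold change 3.91, interval 3.06 to 5.71), from 6 and 111 read pairs. It was under the minimum in control and passed it through the iFIRKO library alone. It lies between *Cyp2c66* and *Cyp2c29* and overlaps the start of the *Cyp2c29* span on the same strand, and 7.32% of its 50-base stretches occur in *Cyp2c29*. Whether these reads belong to the pseudogene or to *Cyp2c29* was not tested. *Cyp3a63-ps* stood at 45.0 normalized reads in control against 103.0 in iFIRKO (log2 fold change 1.13, interval 0.43 to 1.95), and shares more of its stretches with *Cyp3a44*, which was lower in iFIRKO, than with any other gene.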

How the results depend on the processing

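The counts of members past 1.5-fold, 6 higher and 9 lower, ranged from 4 to 6 and from 8 to 10 over the alternatives to the pseudocount, the minimum, the scaling and duplicate symbols. With a fold of 2 they were 2 higher and 3 lower, since fewer genes pass a wider limit. No share of all genes under these alternatives, the fold of 2 included, stands beside the counts. The 3 lower genes at a fold of 2 include *Cyp2g1*, at 46 and 20 read pairs. *Cyp2c55* and *Cyp3a41b* came inside 1.5-fold with a pseudocount of 41.8 normalized reads, and *Cyp2c37* with a total that leaves the members out. The median log2 fold change of 0.0814 moved to 0.0181 without a minimum, where members at 0 enter. Other scalings moved every log2 fold change by -0.012 to 0.014, and the signs of *Cyp2b13* (0.01) and *Ahr* (0.00) turned, both to -0.01 with a total without the 20 most abundant genes. Of 485 values of 97 single genes 1 left its interval, and of 70 values of 14 subfamily sums 2 did. The number of members with at least 20% shared stretches fell from 20 to 10 with stretches of 75 bases and to 5 with 100, because longer stretches match less often. No paired analysis was possible because each genotype has 1 library. *Cyp1a1*, *Cyp1b1*, *Cyp2d12*, *Cyp2s1* and *Cyp3a16*, the rarest measurable members beside *Cyp2g1*, had intervals that hold both no difference and a 1.5-fold one, so a difference of that size was not detectable at this depth.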
